A study of Trichoderma reesei QM6a with 4 samples.

Results

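The genes described here code for proteins of the cytosolic ribosome of Trichoderma reesei, a filamentous fungus used to produce cellulases. They were chosen by name: array genes were matched by number to the locus tags of the gene table of strain QM6a, and those whose symbol starts with rpl or rps followed by a digit were kept. This gave 40 genes of the 9127 on the array, 20 of the large subunit (60S, rpl) and 20 of the small subunit (40S, rps). Messenger RNA was measured on 4 single-colour Agilent arrays with Cy3-labelled RNA. Of these, 2 held mycelium of the wild type and 2 held mycelium of AT01, a mutant that the submitters describe as accumulating much copper. Both strains had grown in YPD, a rich medium, with 1 mM CuSO4 at 25 °C, and were harvested after 5 days, so the wild type was under copper as well and no culture without copper is part of the comparison. The labels give neither the mutated gene of AT01 nor its parent, and nothing in them tells whether the 2 arrays of each strain hold RNA of different cultures. A p-value here is therefore set against the spread from array to array, possibly only technical, and having 2 arrays per strain limits the precision.

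The ribosome translates messenger RNA into protein. The small subunit binds the messenger RNA and reads its codons, and the large subunit joins the amino acids and releases the chain through an exit tunnel. Each subunit is built from ribosomal RNA and a set of proteins present in about equal numbers, and in Saccharomyces cerevisiae and other fungi the genes of these proteins are among the most strongly transcribed in growing cells and are turned down together when growth slows or cells are stressed. Roles given below are those of the protein of the same name in S. cerevisiae unless another species is named, since the gene table holds symbols without descriptions.

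Arrays of AT01 had the higher 75th percentiles. These were 41.1 and 39.6 units of processed intensity, those of the wild type 20.6 and 22.0, and each array was scaled by its own percentile on the log2 scale. Every value below is a log2 signal scaled in this way, averaged over the probes of a gene, and every log2 fold change is AT01 minus wild type. A gene was called where limma's Benjamini-Hochberg adjusted p over all 8005 genes tested was under 0.05. All 40 ribosomal protein genes were tested, and each of their used probes lay well above background on all 4 arrays. No member was thus near the lower limit of detection or passed the filter through 1 strain only. As to the labelled tissue, hfb1, a hydrophobin gene expressed in vegetative mycelium of T. reesei, was detected with all 4 of its probes, and hfb2, the hydrophobin gene linked to sporulation, was well above background on all arrays with 1 of 4 probes. After scaling hfb1 was called higher in AT01 (log2 fold change 0.56 ± 0.12), although its probes disagreed, from -0.46 to 1.67, and its call ended without either AT01 array (limma's adjusted p = 0.0565 and 0.0639). The call of hfb1 also ended with its brightest probe (-0.39) and with the median of its probes (0.61). The gene hfb2 was not called (0.01 ± 0.13), but its probe well above background on all arrays changed by -0.73. It was called lower with that probe alone (limma's adjusted p = 0.0402 as brightest probe, 0.0234 as mean of detected probes). With normexp background correction it was also called lower (-0.20, limma's adjusted p = 0.00281), as were 64.8% of all genes. Less messenger RNA per cell and fewer of the cells that make it cannot be told apart in such extracts.

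After 75th percentile scaling, ribosomal protein genes were lower in AT01 than in the wild type in both subunits. Of the 20 large subunit genes 18 fell and 0 rose, and of the 20 small subunit genes 19 fell and 0 rose, where 32.6% of all genes tested were called lower and 14.5% higher. The median log2 fold change was -0.86 over the large subunit genes and -0.70 over the small subunit genes, against -0.23 over all genes tested. The counts rest on this scaling. After cyclic loess 8 large and 2 small subunit genes were called lower and 1 large subunit gene higher. Over all genes 11.2% were then called lower and 16.2% higher. After quantile normalization the counts were 10 and 3 lower and 1 large subunit gene higher, against 11.0% and 15.2% of all genes. With normexp background correction the small subunit median, -0.17, was that of all genes. Both AT01 arrays lay below both wild-type arrays for 39 of the 40 genes, rpl16 being the exception, and the same held for 51.9% of all genes tested. All 40 members were in the tenth of genes (801) with the highest array signal, a value that also depends on the probes. Of the other 761 genes there, 33.5% were called lower, and their median log2 fold change was -0.15. Without the first AT01 array 13 large and 12 small subunit genes were called lower, where 18.6% of all genes were, and without the second 16 and 16, where 13.0% were. Such a fit assumes that the lone array of a strain varies like the 2 arrays of the other strain, the only source of its spread.

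These differences are relative to the other genes on the array. Before scaling, the median difference between AT01 and wild type was 0.06 over the large subunit genes and 0.22 over the small subunit genes on the log2 scale, while it was 0.69 over all genes tested. Unscaled signals were higher in AT01 for 12 of the 20 large subunit genes and 17 of the 20 small subunit genes. The scaling shifted all genes alike by 0.92, the difference between the 75th percentiles of the strains.

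**Figure D1:**
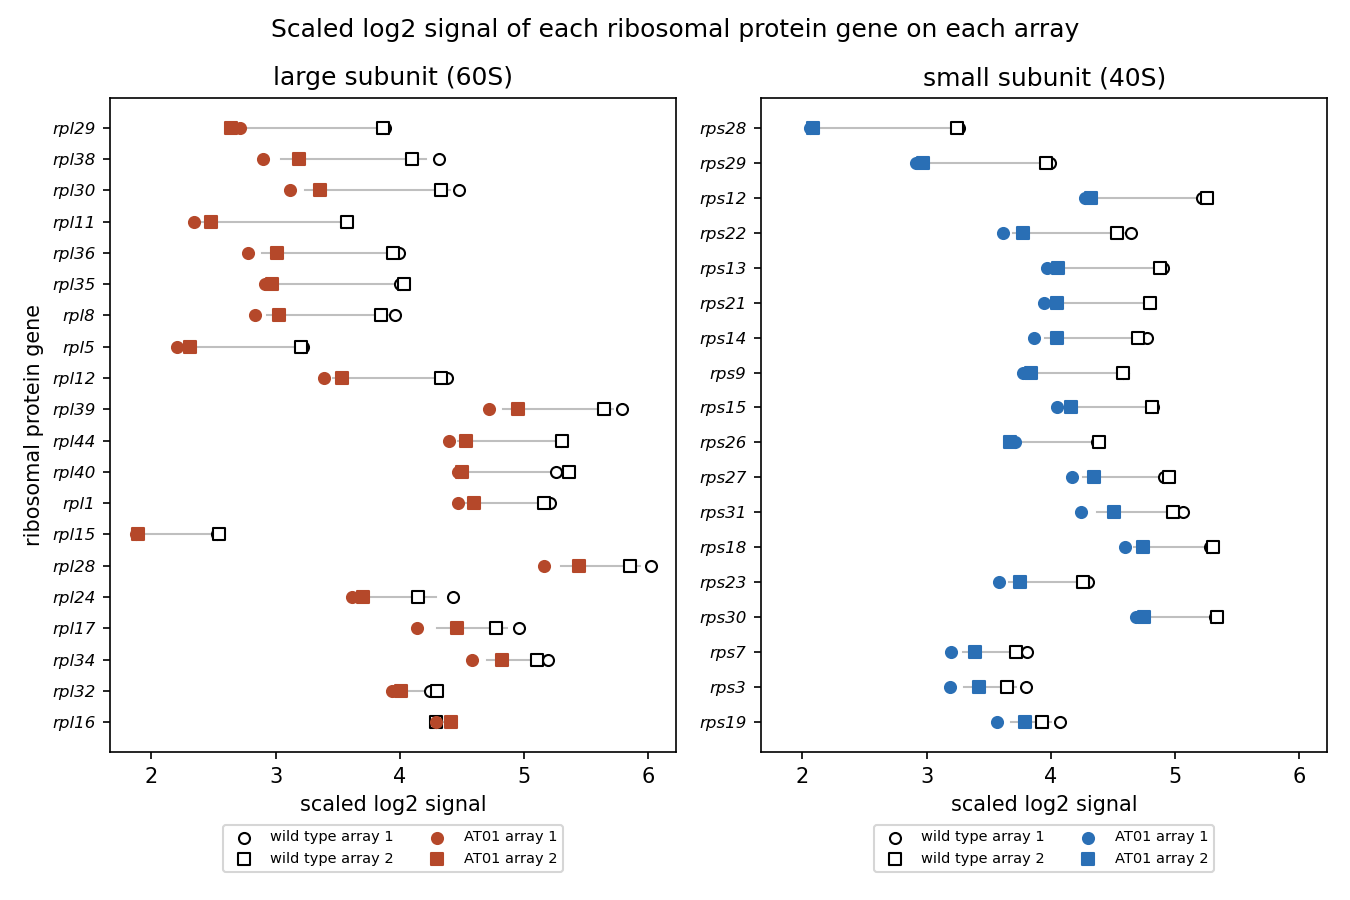
Scaled log2 signal (x axis) of 38 of the 40 ribosomal protein genes (y axis) on the 4 arrays, with open black symbols for wild type, filled coloured symbols for AT01 and a grey line joining the strain means. In 37 of the 38 genes drawn both AT01 arrays lie to the left of both wild-type arrays, and rpl16 overlaps. The same held for 51.9% of all genes tested.

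Among the large subunit genes, rpl29 had the largest fall. It read 3.88 and 3.86 in the wild type and 2.71 and 2.64 in AT01, a log2 fold change of -1.20 ± 0.12 (SE, n = 2 arrays for each strain; limma's adjusted p = 0.00212). The arrays of each strain lay close together and far from those of the other strain. This value rests on 2 of the gene's 3 probes, since 1 probe was marked as outlying on an array and was left out on all 4. When outlying spots were left out array by array instead, so that the arrays averaged different probes, the log2 fold change was -1.81 ± 0.46.

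The gene rpl38 read 4.32 and 4.10 in the wild type and 2.90 and 3.19 in AT01, with a log2 fold change of -1.17 ± 0.15. Its 4 used probes fell by nearly the same amount, from -1.19 to -1.12, and 1 more was left out as outlying. The gene rpl30, whose protein binds its own transcript and restrains its splicing, read 4.48 and 4.33 against 3.11 and 3.36, a log2 fold change of -1.17 ± 0.14. Its 4 probes ran from -1.48 to -1.04, so all probes used for these genes were lower in AT01.

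Both protein partners of the 5S ribosomal RNA were among the lowered genes. The gene rpl11 read 3.57 and 3.57 in the wild type and 2.34 and 2.48 in AT01 (log2 fold change -1.16 ± 0.12, limma's adjusted p = 0.00236). The gene rpl5, coding for the other protein that binds this RNA, read 3.22 and 3.20 against 2.21 and 2.31 (-0.95 ± 0.12, limma's adjusted p = 0.00340). In both genes the gap between the strains was many times the gap between arrays of a strain.

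At the exit tunnel, rpl35, whose protein sits at its opening, read 3.999 and 4.03 in the wild type and 2.92 and 2.97 in AT01, a log2 fold change of -1.07 ± 0.12. The gene rpl39, whose small protein lines the tunnel, read 5.79 and 5.64 against 4.72 and 4.95, and fell by 0.88 ± 0.14 on the log2 scale. The gene rpl36 read 3.99 and 3.95 against 2.78 and 3.01 (-1.08 ± 0.13). None of these genes overlapped between strains, which for rpl35 and rpl36 was a condition for being shown among the largest falls. Of all genes tested, 51.9% had both AT01 arrays below both wild-type arrays. In each of rpl35, rpl39 and rpl36 the AT01 arrays differed from each other more than the wild-type arrays did.

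The remaining large subunit genes called lower are given by their log2 fold changes. The gene rpl12, coding for a protein at the base of the stalk that translation factors bind, changed by -0.89 ± 0.12, rpl8 by -0.98 ± 0.13 and rpl44 by -0.84 ± 0.12. The gene rpl40, coding for a ribosomal protein made as a fusion with ubiquitin, changed by -0.82 ± 0.12. The gene rpl1, for the protein of the mobile L1 stalk, changed by -0.65 ± 0.12 and rpl15 by -0.65 ± 0.12. The gene rpl24, for a protein added late in assembly in the cytoplasm, changed by -0.63 ± 0.14, rpl17 by -0.57 ± 0.16 and rpl34 by -0.45 ± 0.14. The gene rpl28, shown like rpl39 for its high array signal, read 6.02 and 5.85 in the wild type and 5.16 and 5.44 in AT01 and changed by -0.63 ± 0.15 (limma's adjusted p = 0.0167). With the highest adjusted p among the called genes of this subunit, rpl34 was closest to the threshold (limma's adjusted p = 0.0384). It was called lower in 7 of 18 alternative ways of processing.

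Only rpl32 and rpl16 of the large subunit were not called. The gene rpl32 read 4.25 and 4.30 in the wild type and 3.94 and 4.01 in AT01, a log2 fold change of -0.30 ± 0.12 (limma's adjusted p = 0.0827). Its arrays did not overlap between strains, but its difference was close to the median of all genes. The gene rpl16 read 4.29 and 4.29 in the wild type and 4.29 and 4.41 in AT01 (0.06 ± 0.12, limma's adjusted p = 0.717), so the strains overlapped. Its 5 probes ran from -0.04 to 0.16. The gap of 0.35 between rpl16 and rpl32, its neighbour in the order of change, was the widest between neighbouring members, whose median gap was 0.01 with SEs of 0.12 to 0.16. Most neighbours in that order therefore do not differ beyond their error.

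**Figure D2:**
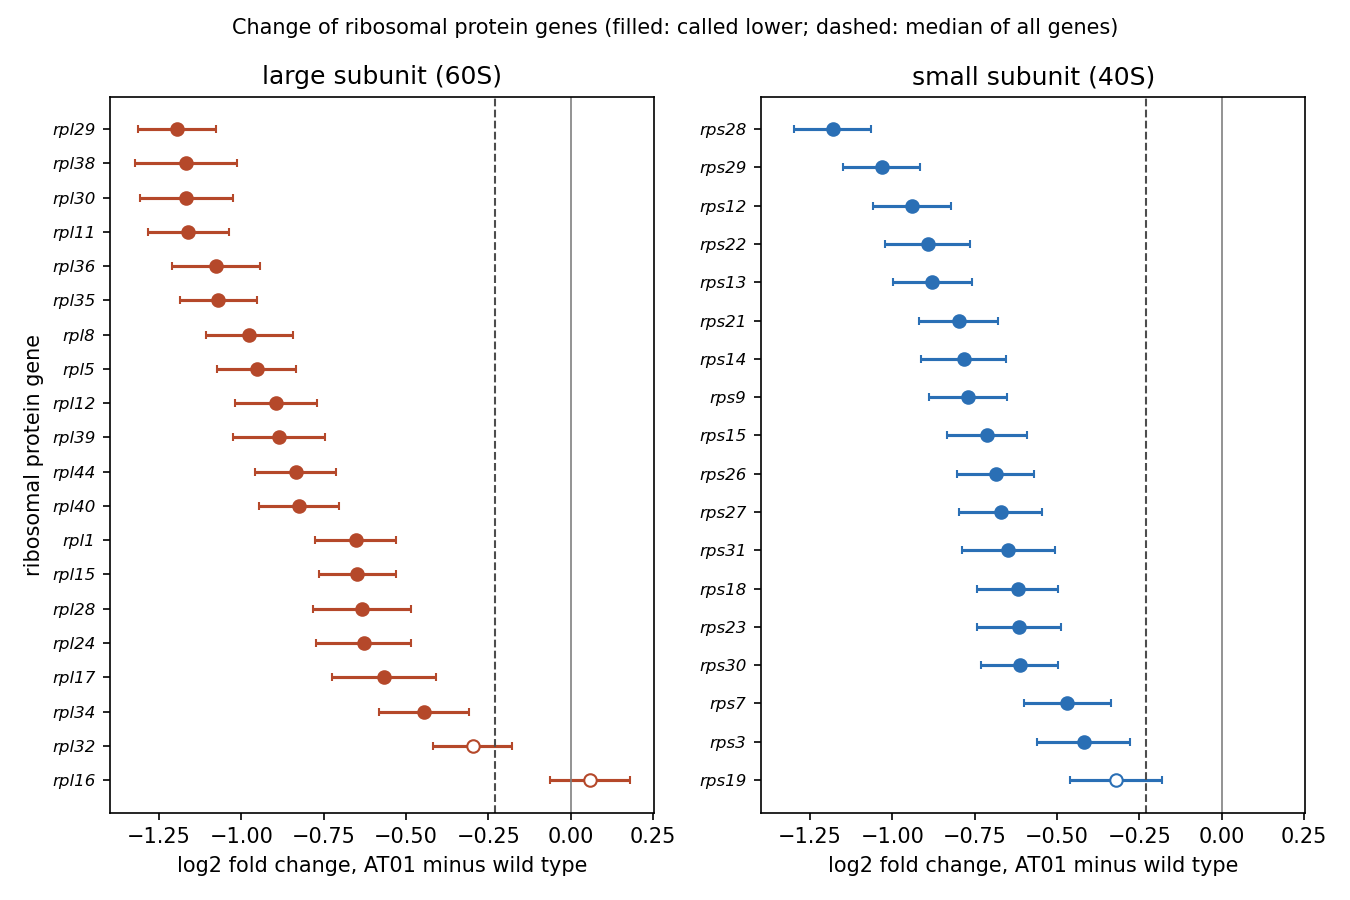
Log2 fold change of AT01 against wild type (x axis, points, with SE as bars, n = 2 arrays for each strain) for the 20 large subunit genes and 18 of the small subunit genes (y axis), ordered by size. Filled points passed the threshold in limma, open points did not, and the dashed line marks the median of all genes tested, -0.23.

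Among the small subunit genes, rps28, whose protein lies near the exit of the messenger RNA channel, fell most. Its signal was 3.26 and 3.25 in the wild type and 2.06 and 2.09 in AT01, a log2 fold change of -1.18 ± 0.12 (limma's adjusted p = 0.00212). The gene rps29, whose protein binds zinc in the head of the subunit, read 3.996 and 3.96 against 2.91 and 2.97 (-1.03 ± 0.12, limma's adjusted p = 0.00285). Each of the 3 probes of either gene was lower in AT01, and arrays of a strain differed by far less than the strains did.

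The gene rps12, for a protein of the beak, read 5.22 and 5.26 in the wild type and 4.27 and 4.32 in AT01, with a log2 fold change of -0.94 ± 0.12. The gene rps22 read 4.64 and 4.53 against 3.62 and 3.77 (-0.89 ± 0.13), and rps13 read 4.90 and 4.88 against 3.97 and 4.06 (-0.88 ± 0.12). The gene rps21 read 4.79 and 4.80 against 3.95 and 4.05 (-0.80 ± 0.12). None of these genes overlapped between strains, which was a condition for being shown among the largest falls. Both AT01 arrays lay below both wild-type arrays for 51.9% of all genes tested.

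Other small subunit genes code for proteins around the decoding site and the messenger RNA path. The log2 fold change was -0.62 ± 0.13 for rps23, a protein of the decoding centre, -0.71 ± 0.12 for rps15, which reaches toward the decoding site, and -0.77 ± 0.12 for rps9, which affects reading accuracy. It was -0.78 ± 0.13 for rps14 and -0.69 ± 0.12 for rps26, which contact the messenger RNA near its exit. The gene rps3, at the channel's entry, changed by -0.42 ± 0.14 (limma's adjusted p = 0.0493) and so lay just inside the threshold. It was called lower in only 4 of 18 alternative ways of processing.

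Of the other small subunit genes, rps31, like rpl40 made as a ubiquitin fusion, changed by -0.65 ± 0.14, rps27 by -0.67 ± 0.13 and rps7 by -0.47 ± 0.13. The call of rps7 held in 7 of 18 alternative ways of processing. Shown for their high array signal, rps30 read 5.32 and 5.34 in the wild type and 4.69 and 4.75 in AT01 (-0.61 ± 0.12), and rps18 read 5.28 and 5.30 against 4.60 and 4.74 (-0.62 ± 0.12). The gene rps19, whose human counterpart is mutated in Diamond-Blackfan anaemia, was the small subunit gene not called. It read 4.07 and 3.92 against 3.56 and 3.79, with a log2 fold change of -0.32 ± 0.14 (limma's adjusted p = 0.101). After percentile scaling all 83 probes of the small subunit genes were lower in AT01. Of the 84 used probes of the large subunit genes 81 were, the other 3 being probes of rpl16. The share of all probes on the array that were lower is not given here. With this scaling both AT01 arrays lay below both wild-type arrays for 51.9% of all genes tested. After cyclic loess the log2 fold changes of some members were above 0, among them rps19 (0.12), rpl34 (0.13) and rpl32 (0.18).

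In the gene table, 2 pairs of members lie next to one another: rps12 and rps22, which changed by -0.94 and -0.89, and rps31 and rps26, by -0.65 and -0.69. Values this close are common among the small subunit genes, whose SD between genes was 0.21. An effect of position was not tested.

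The large subunit genes lay lower than the small subunit genes, by 0.16 in the difference of the medians. As a description of the members after percentile scaling, 6 large subunit genes (rpl29, rpl38, rpl30, rpl11, rpl36 and rpl35) were at least 2-fold lower in AT01. So were 2 small subunit genes (rps28 and rps29). The share of all genes at least 2-fold lower is not given here. No member was 2-fold lower after cyclic loess or quantile normalization, where rps28 had the largest fall (log2 fold changes of -0.88 and -0.98). The subunits overlapped widely: 12 of the 20 large subunit genes lay below the small subunit median, and 5 of the 20 small subunit genes lay below the large subunit median. Changes were more spread among large subunit genes (SD between genes 0.33) than among small subunit genes (SD 0.21). No test over the members was made, since genes of a subunit are not replicates.

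This difference between subunits can be read array by array without regard to a shift common to all genes of an array, which cancels. A difference between arrays that changes with brightness does not cancel. After cyclic loess, which is meant to remove such a difference, the large subunit median was lower by 0.13 in place of 0.16. Whether it removes that difference fully among the brightest genes, where all members lie, was not tested. With each gene centred on its own mean over the 4 arrays, the large subunit median minus the small subunit median was 0.10 and 0.06 in the wild type, and -0.08 and -0.07 in AT01. Both arrays of a strain were on the same side, and the pooled SD between arrays of a strain was 0.02. That SD measures how well arrays repeat, not the spread between genes, whose SD was 0.33 and 0.21. Opposite signs in the strains largely follow from the centring. In each of 18 alternative ways of processing the large subunit median was the lower, with a difference of -0.18 to -0.12. Settings that shift all genes alike, or change only the filter, prior variance or block, cannot alter this difference, which stayed at -0.16. All alternatives use the same arrays.

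**Figure D3:**
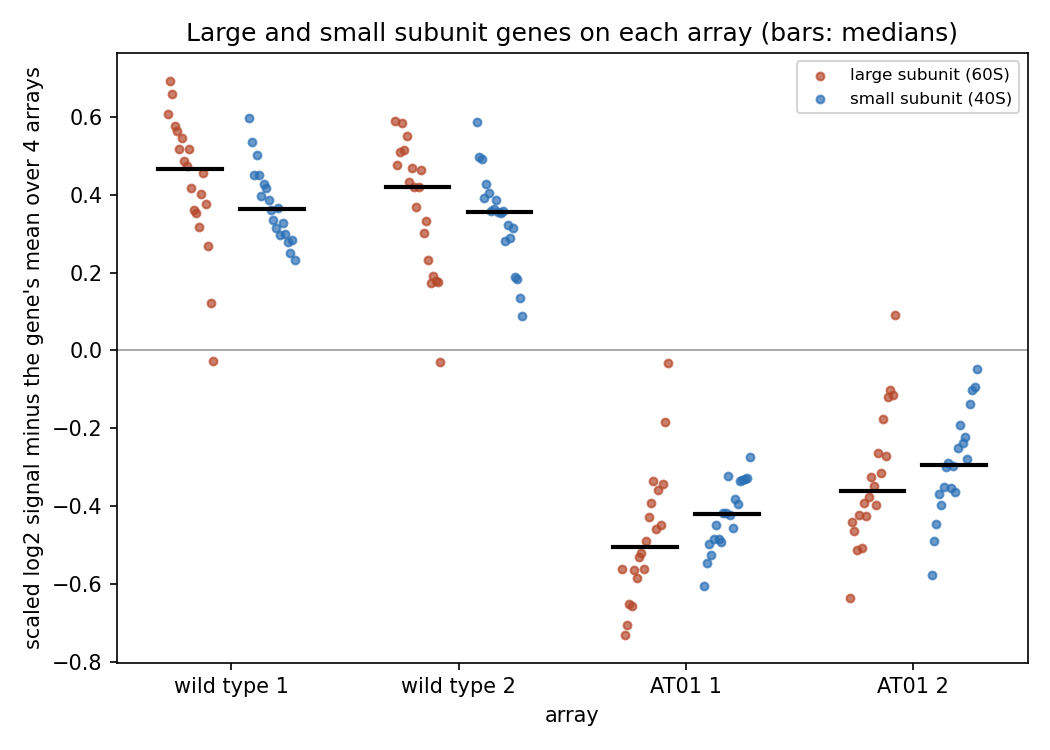
Scaled log2 signal of each ribosomal protein gene minus that gene's mean over the 4 arrays (y axis) on each array (x axis), with a point for each large subunit (red) and small subunit gene (blue) and a black bar for the median. The large subunit medians are farther from 0 than the small subunit medians on all 4 arrays. Through the centring the AT01 side largely mirrors the wild-type side, so the 4 arrays are not independent here.

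The number of called genes depended strongly on the scaling. Cyclic loess is meant to remove a difference between arrays that changes with brightness. With it, 8 of the 20 large subunit genes and 2 of the 20 small subunit genes were called lower, where 11.2% of all genes were. The medians were then -0.34 and -0.21, against -0.01 over all genes. Quantile normalization left 10 large and 3 small subunit genes called lower, where 11.0% of all genes were, with medians of -0.40 and -0.25 against -0.02 over all genes. With limma on the values of the authors' deposited table the counts were 10 and 3, where 14.7% of all genes were called lower, with medians of -0.39 and -0.25 against -0.06. With normexp background correction the counts were 13 and 11 of 20, where 64.8% of all genes were called lower. Its medians were -0.31 and -0.17, against -0.17 over all genes, so the small subunit median then equalled that of all genes to 2 decimals.

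Other scalings and filters kept 16 or more calls in each subunit. With the 75th percentile over detected probes 16 large and 16 small subunit genes were called lower, where 23.1% of all genes were called lower and 17.0% higher. With array median scaling the counts were 18 and 19 (34.1% lower and 14.9% higher over all genes), and with a common lower limit 18 and 18 (16.6% and 15.0%). Restricting the test to genes detected on all arrays gave 18 and 19 (35.0% and 15.5%), and no filter gave 18 and 18 (35.7% and 12.5%). Except with the percentile over detected probes, where the medians were -0.76 and -0.60, these settings gave medians of -0.86 and -0.70.

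Combining probes by the brightest or the median cost more calls in the small subunit than in the large. The brightest probe of each gene gave 13 and 11 (30.4% and 9.91%), the median of its probes 13 and 9 (10.6% and 8.33%), and the mean over detected probes 18 and 18 (37.9% and 12.2%). A trended and robust prior variance gave 19 and 20 (34.0% and 16.1%), a replicate block 18 and 19 (36.8% and 15.5%), and leaving out outlying spots array by array 18 and 18 (30.6% and 14.1%). Without the first wild-type array the counts were 14 and 16 (25.2% and 12.9%), and without the second 17 and 16 (25.2% and 11.2%). Without the first AT01 array 8.94% of all genes were called higher and without the second 6.76%, and no member was.

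**Figure D4:**
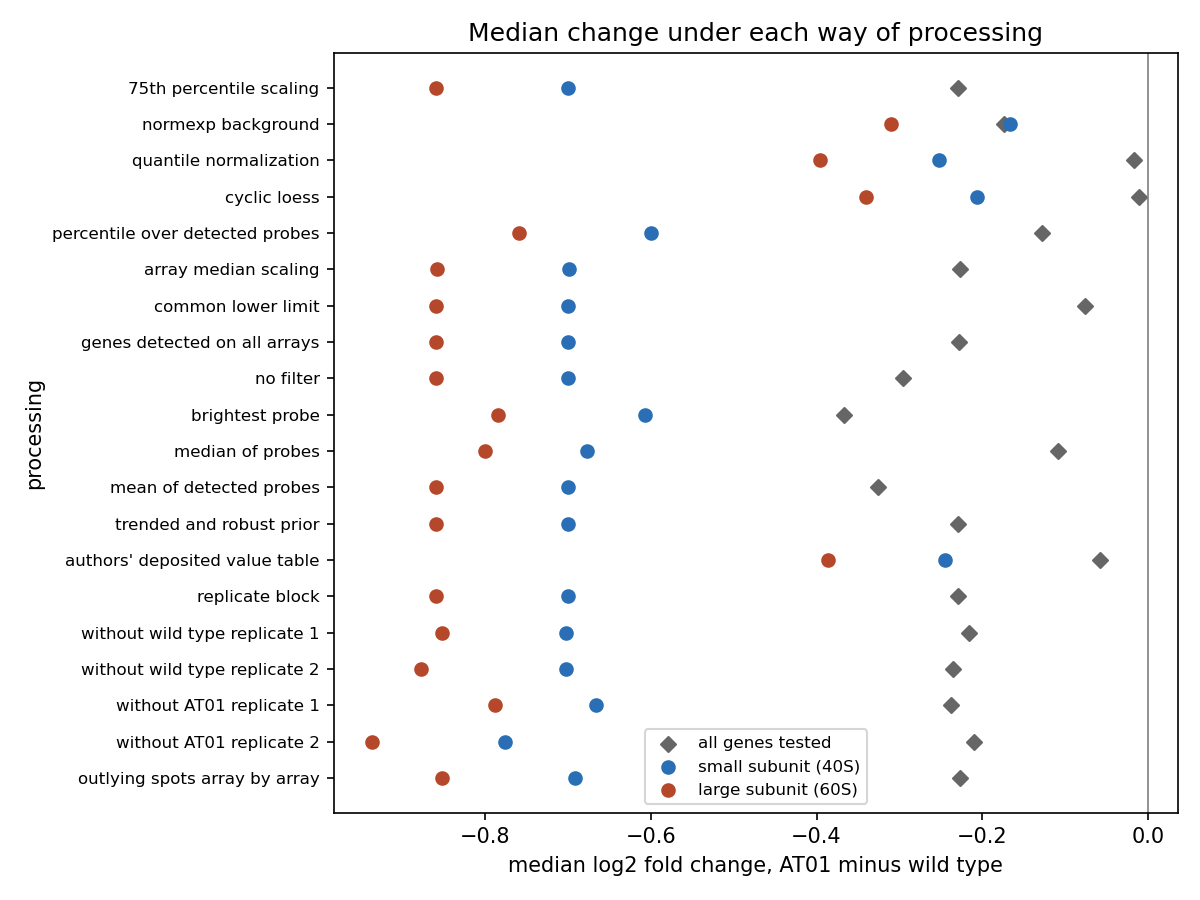
Median log2 fold change of AT01 against wild type (x axis) under each way of processing (y axis) for the large subunit genes (red), the small subunit genes (blue) and all genes tested (grey diamonds). The red points lie left of the blue points each time, while their distance from 0 shrinks from -0.86 to -0.31 and from -0.70 to -0.17 with normexp. Settings that shift all genes alike, or change only the filter, prior variance or block, cannot alter the distance between red and blue.

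Of the members, 9 were called lower in each of the 18 alternatives, 7 of the large subunit (rpl11, rpl29, rpl30, rpl35, rpl36, rpl38 and rpl5) and 2 of the small (rps28 and rps29), and 2.97% of all genes tested were. Over these alternatives the log2 fold change of rpl11 ran from -1.23 to -0.52, that of rpl38 from -1.31 to -0.56 and that of rps28 from -1.23 to -0.58. In cyclic loess their values were -0.82 ± 0.13 for rpl11, -0.75 ± 0.17 for rpl38 and -0.88 ± 0.13 for rps28, each nearer to 0 than after percentile scaling. Calls of rpl12 and rps12 ended in 1 alternative each, cyclic loess (-0.44, limma's adjusted p = 0.0529, and -0.39, limma's adjusted p = 0.0600), and that of rpl8 with the median of its probes (-0.77, limma's adjusted p = 0.0556).

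The opposite held for rpl16. It was called higher after quantile normalization (0.55, limma's adjusted p = 0.0270), after cyclic loess (0.56, limma's adjusted p = 0.0215), with normexp (0.51, limma's adjusted p = 5.63e-05) and in the authors' deposited table (0.55, limma's adjusted p = 0.0260), where 15.2%, 16.2%, 11.2% and 14.9% of all genes were called higher. It was called lower in none of the 18 alternatives. The gene rpl32 was called higher with normexp (0.20) and lower with a trended and robust prior variance (-0.30).

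**Figure D5:**
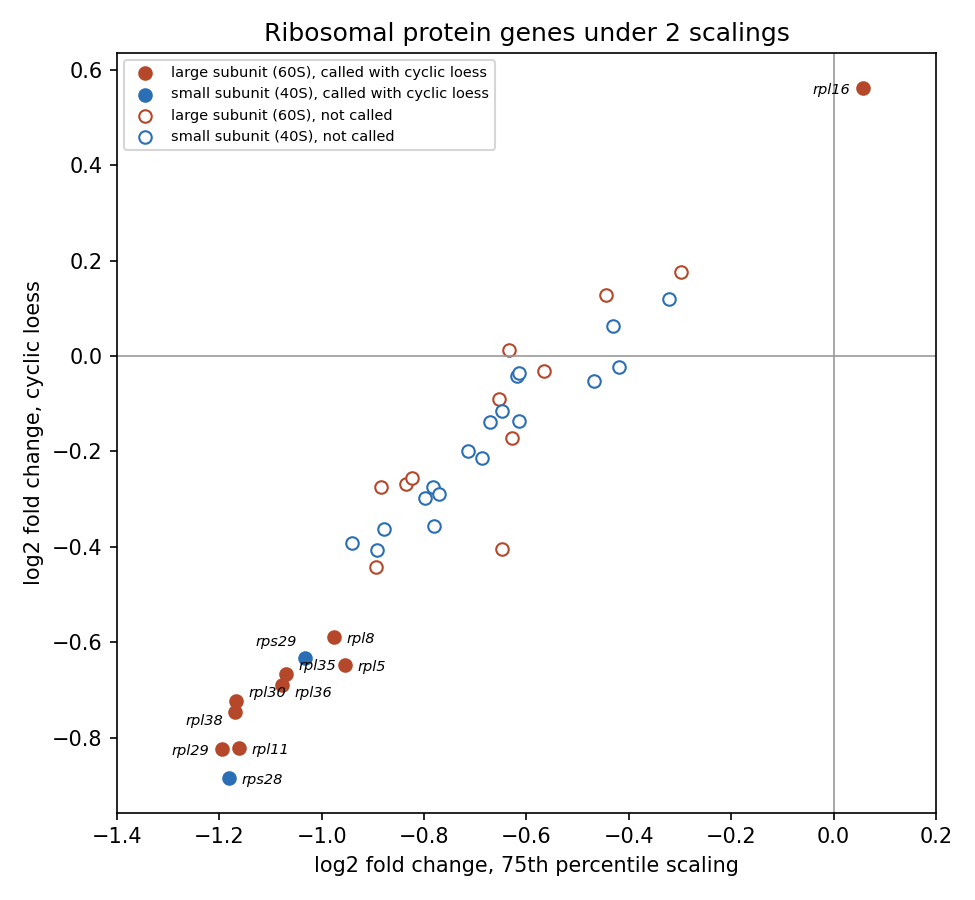
Log2 fold change of each ribosomal protein gene after 75th percentile scaling (x axis) and after cyclic loess (y axis), with filled and named points for genes called after cyclic loess. In the lower left are 8 large and 2 small subunit genes called lower, and rpl16, called higher, stands alone at the upper right. Over all genes tested 11.2% were called lower after cyclic loess and 16.2% higher.

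Genes that work beside the ribosome were taken by symbol as well. The stalk protein genes rla0 and rla1 are left out by the naming rule and were added after the symbols were seen. The gene rla1 read 5.49 and 5.41 in the wild type and 4.36 and 4.50 in AT01, a log2 fold change of -1.02 ± 0.12, a call that ended after cyclic loess (-0.45, limma's adjusted p = 0.0504). The gene rla0 changed by -0.32 ± 0.13 and was not called, with probes from -1.12 to 0.13. It was called lower with its brightest probe (-1.12, limma's adjusted p = 0.0173), with the mean over detected probes (-0.42, limma's adjusted p = 0.0420) and with the trended and robust prior (-0.32, limma's adjusted p = 0.0126). Of the 3 translation factor genes recognised by symbol, erf1, coding for the release factor that ends translation, was called lower (-0.56 ± 0.13), tef2 was called higher (0.54 ± 0.13) and tef1a, coding for elongation factor 1-alpha, was not called (-0.11 ± 0.12). The call of erf1 ended without the second wild-type array (limma's adjusted p = 0.0551) or the first AT01 array (limma's adjusted p = 0.0853), and that of tef2 without the second array of either strain (limma's adjusted p = 0.0553 and 0.0946). The call of tef2 also ended with the brightest probe (0.70, limma's adjusted p = 0.0507) and the median of probes (0.54, limma's adjusted p = 0.0618). The gene tef1a was called higher after cyclic loess (0.65, limma's adjusted p = 0.0139), with quantile normalization (0.59), with normexp (0.41) and in the authors' deposited table (0.61).

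Of RNA polymerase and general transcription genes, rpb2, for a catalytic subunit of RNA polymerase II, was called higher (0.42 ± 0.12), as was tfiiea (0.73 ± 0.19), of whose 5 probes 1 was well above background on all arrays and whose change was -0.08 with normexp. The call of rpb2 ended when any 1 array was left out (limma's adjusted p from 0.0723 to 0.118). The value of tfiiea was 0.48 without the first wild-type array (limma's adjusted p = 0.0537) and 0.99 without the second, and its call also ended without either AT01 array (limma's adjusted p = 0.0948 and 0.0930). With the median of probes neither rpb2 (0.27, limma's adjusted p = 0.214) nor tfiiea (0.65, limma's adjusted p = 0.255) was called. Of the 6 genes of the proteasome, another large complex, psa5, psa6 and psa7 were called lower (-0.67, -0.63 and -0.47). In the same complex psb5 was called higher (0.57), and psa3 (-0.01) and psb4 (0.07) were not called. Of these calls, psa5 was lost after quantile normalization (-0.42, limma's adjusted p = 0.0541) and cyclic loess (-0.31, limma's adjusted p = 0.136), psa6 without the first AT01 array, psa7 without the first wild-type array or either AT01 array, and psb5 without either AT01 array. The call of psa6 also ended with the brightest probe (-0.32) and the median of probes (-0.42). That of psa7 also ended after cyclic loess (-0.43) and with the percentile over detected probes (-0.37), the brightest probe (-0.14) and the median of probes (-0.49). The median over the 6 was -0.24, close to that over all genes tested.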

How the data were processed

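The deposited spot intensity is, per the file headers, linear and already corrected for background by the scanner software, which the submitters' processing notes give as Agilent Feature Extraction 10.5.1.1. The authors' deposited value table follows the log2 signal of each array (Pearson's r 0.993 to 0.996 over 28201 probes), has a median of 4.31 on every array and is taken as log2 from this; how the authors normalized it is not given in the sources used here.

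Control spots were dropped, intensities were put on the log2 scale and each array's 75th percentile was subtracted. A probe with an outlier flag on any array (142 probes) was dropped on all 4, and saturation flags were absent. The mean of a gene's probes was tested if, in either strain, a probe of it stood well above background on both arrays (8005 of 9127 genes). Numbers in the array's gene names matched locus tags of QM6a for 9070 genes (99.4%). Since no source names the annotation used to design the array, no coordinates are given. The test was limma 3.58.1 (lmFit, eBayes) under R 4.3.3 with Benjamini-Hochberg adjustment. Simulated data held 200 lowered genes among 8005. There, 71.9% of falls of 1 and 2.24% of falls of 0.5 on the log2 scale were called, and 4.29% of calls were false. On the real arrays 3776 genes were called, so these shares do not carry over to them.

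Members and lists were chosen with earlier results of these data known. Of the members 2 are not reported singly here and enter the counts and medians only. Each of the others is named. Values on every array are given for up to 6 called members per subunit with the largest changes, chosen among those without overlap between strains. They are also given for the 2 with the highest signal per subunit, those not called, and those called the other way under an alternative. Array values of rpl5, and the genes rla0 and rla1, were added afterwards. Lists of translation, transcription and proteasome genes and of mycelium and spore markers were taken by symbol and named whole. Alternatives changed the background correction (normexp on the median spot signal, as the files hold no mean signal), the scaling, filters, probe summary, prior variance, source table and replicate block, or left out an array.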

Additional observations from a re-analysis of the deposited data

How the results depend on the processing

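Depth is not what limits these genes, whose probes all lay well above background. The limits are 2 arrays per strain and a brightness difference between the strains that coincides with the comparison. All 4 arrays share a scan time per the file headers, so slide or scan could not be used as a block. The replicate numbers of the titles were used as a block: same-numbered arrays did not deviate together (Pearson's r across genes 0.01), and with the replicate block 4184 genes were called in place of 3776, 18 and 19 of them large and small subunit genes called lower, as without it.

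The cause of the changes below was not tested. With normexp, 5186 genes were called lower in place of 2612, and 11 small subunit genes, with medians of -0.31 (large) and -0.17 (small). Quantile normalization gave 882 genes called lower, 10 large and 3 small subunit genes, and medians of -0.40 and -0.25. Cyclic loess gave 898, 8 and 2, medians of -0.34 and -0.21, and a difference between the medians of -0.13. The deposited table gave 1178, 10 and 3, with medians of -0.39 and -0.25. The median of a gene's probes gave 850 genes called lower and 667 higher in place of 1164, 9 small subunit genes and a difference between the medians of -0.12. The brightest probe gave 11 small subunit genes, with medians of -0.78 and -0.61, and the percentile over detected probes gave medians of -0.76 and -0.60. The common lower limit gave 1330 genes called lower. Rises made up 30.8% of the called genes, and 58.0% with quantile normalization, 59.1% with cyclic loess, 47.5% with the common lower limit, 42.3% with the percentile over detected probes, 44.0% with the median of probes, 50.3% in the deposited table and 14.8% with normexp.

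With an array left out, 1043 to 2016 genes were called lower and 541 to 1029 higher, with 13 to 17 large and 12 to 16 small subunit genes called lower. The fewest calls of small subunit genes, 12, came without AT01 array 1, where 1491 genes were called lower and 716 higher, and the fewest over all genes, 1043 and 541, without AT01 array 2. The medians ran from -0.94 to -0.79 and from -0.78 to -0.67, and their difference from -0.17 to -0.12.

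Some log2 fold changes changed sign. With normexp it was 0.053 for rps3, -0.20 for hfb2, 0.069 for rpl34, 0.026 for rps7, 0.18 for rps19, 0.20 for rpl32, 0.41 for tef1a, -0.078 for tfiiea, 0.049 for psa3 and 0.0066 for rla0. After quantile normalization it was 0.10 for rpl34, 0.068 for rps19, 0.13 for rpl32, 0.59 for tef1a, 0.0081 for psa3 and 0.021 for rla0. After cyclic loess it was 0.13 for rpl34, 0.12 for rps19, 0.013 for rpl28, 0.18 for rpl32, 0.65 for tef1a, 0.044 for psa3 and 0.047 for rla0. In the authors' deposited table it was -0.27 for hfb2, 0.12 for rpl34, 0.076 for rps19, 0.14 for rpl32, 0.61 for tef1a, 0.0087 for psa3 and 0.066 for rla0. With the brightest probe it was -0.73 for hfb2, -0.011 for rpl16, 0.15 for tef1a, -0.39 for hfb1 and 0.21 for psa3. With the mean of detected probes it was -0.73 for hfb2. With the percentile over detected probes it was 0.094 for psa3. With outlying spots left out array by array, an alternative chosen after seeing the data, it was 0.0017 for psa3. With an array left out it ran from -0.096 to 0.11 for hfb2, from -0.079 to 0.066 for psa3, from -0.024 to 0.17 for psb4 and from -0.0040 to 0.12 for rpl16.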
